A study of Mus musculus with 16 samples.

Results

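Transcripts of 10 genes for proteoglycans, matrilins and other noncollagenous proteins of cartilage matrix were followed in chondrocyte-enriched cells from Notch2 mutant and wild type mice, with and without TNFα. The genes were taken by symbol (Acan, Hapln1, Matn1, Matn3, Comp, Snorc, Ucma, Cnmd, Chad and Chadl), and all 10 were found among the 55414 Ensembl gene identifiers that were counted. All 10 passed the filter of 10 counts summed over the compared libraries in each comparison.

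The cells were isolated by trypsin and collagenase from limb epiphyses of newborn mice, 3 to 4 days old, as pools of male and female animals, and were grown to confluence. The mutant mice were heterozygous for Notch2tm1.1Ecan, an allele on a C57BL/6 background that carries a stop codon ahead of the PEST domain of NOTCH2, and the wild type mice were their littermates. The allele is present in every cell of the body, so the cells had carried it throughout development. Cells of each genotype received vehicle (PBS) or TNFα at 50 ng/ml, and RNA was taken after 6 h, with 4 libraries in each of the 4 groups (wild type vehicle, Notch2 mutant vehicle, wild type TNFα and Notch2 mutant TNFα). The labels say that serum was withdrawn for the TNFα groups only, whereas the study's methods describe both treatments without serum, so a difference between TNFα and vehicle cannot be told apart from one of serum withdrawal.

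Cartilage matrix is a gel of aggrecan held in a network of type II collagen fibrils. Aggrecan, the product of Acan, is a large chondroitin and keratan sulfate proteoglycan that binds hyaluronan, and the link protein encoded by Hapln1 locks the 2 together. Matrilins 1 and 3 (Matn1, Matn3) and cartilage oligomeric matrix protein (Comp, also known as thrombospondin 5) are multimeric adaptors that connect collagen fibrils with aggrecan. Snorc encodes a small membrane-spanning chondroitin sulfate proteoglycan, Ucma a small secreted protein rich in gamma-carboxyglutamate, and Cnmd chondromodulin, a glycoprotein that restrains blood vessel growth in cartilage. Chondroadherin (Chad) and chondroadherin-like (Chadl) are leucine-rich repeat proteins that bind collagen. Transcription of many of these genes in chondrocytes requires SOX9 acting with SOX5 and SOX6, and inflammatory cytokines such as TNFα are known to lower the production of aggrecan by chondrocytes.

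In GRCm39 coordinates the 10 genes lay on 10 chromosomes, so none was a neighbor of another. Acan (ENSMUSG00000030607) spanned chr7:78702964-78764847, Hapln1 (ENSMUSG00000021613) chr13:89686581-89759950, Matn1 (ENSMUSG00000040533) chr4:130670216-130682787 and Matn3 (ENSMUSG00000020583) chr12:8997929-9022028. Comp (ENSMUSG00000031849) spanned chr8:70826192-70834716, Snorc (ENSMUSG00000026258) chr1:87397772-87403204 and Ucma (ENSMUSG00000026668) chr2:4980925-4990559. Chad (ENSMUSG00000039084) was at chr11:94455696-94459953, and all of these were on the plus strand, whereas Cnmd (ENSMUSG00000022025), at chr14:79875120-79899615, and Chadl (ENSMUSG00000063765), at chr15:81562497-81581542, were on the minus strand. Some exon sequence of Chadl is shared with L3mbtl2 on the opposite strand, and some of Acan with Gm26633. The libraries were made with a strand-specific kit, but the strand setting of the counting was not given in the sources used here, so reads in these stretches cannot be assigned with certainty.

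RefSeq start sites with flanking sequence were at hand for 8 of the 10 genes, all but Comp and Snorc, and each of the 8 windows of 300 bases matched 1 place in GRCm39. The windows were searched on both strands for the SOX core motifs ACAATG and ACAAAG, the core TGGGAA of the Notch effector RBPJκ, and the kappa B motif of NF-κB. The bases before the start of Chadl, which rose with TNFα, and of Acan and Matn3, which fell, are shown 5′ to 3′ because these 3 windows held the kappa B matches, with capitals for all motif matches. Each begins 250 bases before the RefSeq start and stops where the first GENCODE exon of the gene begins, which leaves 196 bases for Chadl, 240 for Acan and 250 for Matn3. The Chadl bases are at chr15:81581543.0-81581738.0, minus strand, those of Acan at chr7:78702724.0-78702963.0, plus strand, and those of Matn3 at chr12:8997679.0-8997928.0, plus strand.
Chadl: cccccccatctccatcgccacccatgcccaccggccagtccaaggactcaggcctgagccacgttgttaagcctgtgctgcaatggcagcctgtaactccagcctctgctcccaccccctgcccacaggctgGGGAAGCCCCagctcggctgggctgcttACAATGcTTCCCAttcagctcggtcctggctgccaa
Acan: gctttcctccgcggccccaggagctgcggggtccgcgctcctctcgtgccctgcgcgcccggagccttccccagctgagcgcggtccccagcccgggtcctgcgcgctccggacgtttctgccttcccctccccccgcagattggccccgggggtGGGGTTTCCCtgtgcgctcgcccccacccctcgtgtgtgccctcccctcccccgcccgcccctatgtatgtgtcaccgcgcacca
Matn3: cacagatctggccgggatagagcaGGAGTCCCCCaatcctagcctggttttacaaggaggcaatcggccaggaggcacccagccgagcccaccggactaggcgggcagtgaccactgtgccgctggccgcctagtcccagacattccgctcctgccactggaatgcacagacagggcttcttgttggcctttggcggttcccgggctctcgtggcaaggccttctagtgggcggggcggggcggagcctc
Counted from the RefSeq start, the Chadl window held a kappa B match that began at -118, an ACAATG match at -90 and a TGGGAA match on the opposite strand at -83. The Acan window held 1 kappa B match at -95, and the Matn3 window 1 on the opposite strand at -226. Over the 8 genes a kappa B match was present in 3 (Acan, Chadl and Matn3), ACAATG and TGGGAA in 1 each (Chadl) and ACAAAG in none. Of the 250 bases before the RefSeq start, all lay in GENCODE exons for Hapln1 and 177 did for Chad. For Matn1 all 250 lay inside the gene, 127 of them in exons. For these genes the search thus covered sequence within the annotated gene, and the absence of a match says little about bases ahead of it. Among all 32851 promoter windows of the same length, 8.459% held the kappa B motif, 12.57% ACAATG, 18.71% ACAAAG and 25.56% TGGGAA. These are matches of letters in a short window and show neither binding nor its absence.

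Between 3439726 and 44237300 counts fell on genes in a library (median 17062419), and the lowest total was that of Notch2 mutant TNFα replicate 4. Expression is given as CPM (counts per 1e6 counts of the library) after normalization with the trimmed mean of M values. Cartilage markers outside the 10 genes were abundant, with Col2a1 at 37600 CPM in wild type vehicle cells, although Mia averaged only 0.12 to 0.23 CPM in the 4 groups, close to the limit of detection. Transcripts of fibroblasts and perichondrium were abundant too, with Col1a1 at 13840 CPM in the same cells. Notch2 itself averaged 130 ± 19.7 CPM in wild type vehicle, 152 ± 13.5 in Notch2 mutant vehicle, 156 ± 28.0 in wild type TNFα and 223 ± 15.1 in Notch2 mutant TNFα libraries (SD, n = 4), and since the allele differs by a stop codon, gene counts do not test the genotype label.

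Replicate 4 of both wild type groups stood apart in the TNFα response. In wild type vehicle replicate 4, Icam1 was at 439 CPM against 34.4 to 40.4 in the other 3 libraries, and Cxcl10 at 231 CPM against at most 0.884. In wild type TNFα replicate 4, Icam1 was at 2312 CPM against 2590 to 2828 and Cxcl10 at 1326 against 1449 to 1693. Of 10 known NF-κB targets used to check the treatment, 9 were called higher with TNFα in wild type (all but Cxcl10, adjusted p = 0.112) and 10 in Notch2 mutant cells. TNFα responses of wild type cells, and their comparison with mutant cells, are therefore also given without these libraries, in full for TNFα in wild type cells and otherwise where a call, a direction or a count changed.

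Among the 10 genes, Comp had by far the highest level and Matn3 the lowest. Levels were compared between genes per kb of the canonical transcript. In wild type vehicle cells Comp was at 1971 ± 34.9 CPM per kb, Cnmd at 449 ± 10.0, Acan at 220 ± 11.5 and Matn1 at 133 ± 12.3 (SD, n = 4). Ucma followed at 70.4 ± 4.18 CPM per kb, Hapln1 at 34.5 ± 1.32, Chad at 19.0 ± 1.85, Snorc at 9.38 ± 2.94, Chadl at 8.15 ± 0.666 and Matn3 at 3.93 ± 0.246. No neighbors in this order overlapped except Snorc and Chadl. For Chadl the length matters, because its annotated exons add up to 8901 bp against 2602 nt in the canonical transcript, and over all exons its level was 2.38 CPM per kb, below that of Matn3 on the same basis at 3.28, and in wild type TNFα cells it was 6.98, above Snorc and Matn3 but below Hapln1 and Chad.

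**Figure D1:**
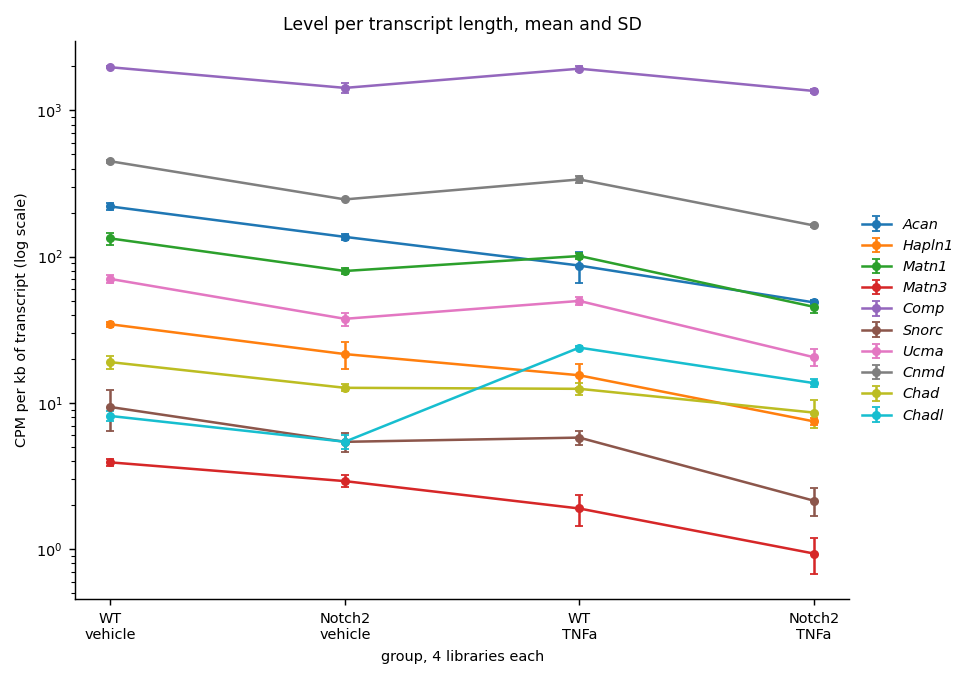
Mean level of each of the 10 genes in CPM per kb of canonical transcript, on a log axis, in the 4 groups, with WT for wild type and Notch2 for Notch2 mutant, lines joining the means of a gene and bars the SD of 4 libraries. Chadl crosses Hapln1, Chad and Snorc with TNFα, rising from 8.15 to 23.9 CPM per kb in wild type cells, while Comp stays at the top in all groups.

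The order changed in several places with TNFα. Chadl moved from the ninth to the sixth place in wild type cells, at 23.9 ± 0.691 CPM per kb, and stood sixth in Notch2 mutant cells at 13.7 ± 0.848. Acan came down to the level of Matn1, with 86.9 ± 21.4 CPM per kb against 101 ± 5.16 in wild type and 48.7 ± 1.54 against 45.4 ± 4.05 in Notch2 mutant cells, and both pairs overlapped. In wild type TNFα cells the overlap came from replicate 4 alone, with Acan at 117.8 CPM per kb. Without that library every Acan value was below every Matn1 value. In Notch2 mutant cells Hapln1, at 21.6 ± 4.54 CPM per kb above Chad at 12.7 ± 0.707 with vehicle, came to 7.48 ± 0.435 with TNFα, with Chad at 8.59 ± 1.86 and overlapping values. Together the 10 genes took 0.756 ± 0.0117% of the counts of a wild type vehicle library, 0.515 ± 0.0272% in Notch2 mutant vehicle, 0.641 ± 0.0260% in wild type TNFα and 0.419 ± 0.0179% in Notch2 mutant TNFα (SD, n = 4). Comp made up 62.0 ± 0.750% of these counts in wild type vehicle and 80.1 ± 0.237% in Notch2 mutant TNFα libraries, while the share of Acan went from 21.7 ± 1.09% to 9.01 ± 0.28%.

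The first comparison asked how the Notch2 mutation altered these transcripts in the absence of TNFα. All 10 genes were lower in Notch2 mutant than in wild type cells, by a log2 fold change of -0.41 (Matn3) to -0.91 (Ucma), with a median of -0.67 against -0.002 over all 19432 genes tested. For comparison, 4.35% of all genes tested were called lower (edgeR's quasi-likelihood test, Benjamini-Hochberg adjusted p under 0.05) and 6.19% higher. In 9 of the 10 genes every mutant library was below every wild type library, against 7.57% of all genes, and Snorc was the exception. None of the 10 reached a log2 fold change of -1 or less, which 0.298% of all genes did.

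Aggrecan and its link protein were both lower in mutant cells. Acan was at 1748, 1700, 1551 and 1716 CPM in the 4 wild type vehicle libraries and at 1055, 1038, 971 and 1099 CPM in the Notch2 mutant vehicle libraries. The groups were far apart, and the log2 fold change was -0.68 ± 0.05 (SE, adjusted p = 2.12e-09), or 0.623 of the wild type level. Hapln1, whose product fastens aggrecan to hyaluronan, was at 215, 201, 200 and 197 CPM in wild type and at 87.5, 136, 146 and 139 CPM in mutant vehicle libraries. Here 1 mutant library, replicate 1, lay well below the others. The log2 fold change was -0.67 ± 0.16 with an adjusted p of 0.0433. This call was lost when any of the other 7 libraries was left out (adjusted p from 0.0537 to 0.0992), and without mutant vehicle replicate 1 it was -0.53 with an adjusted p of 1.96e-10.

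The adaptor proteins fell less evenly. Matn1 was at 267, 286, 285 and 233 CPM in wild type and at 169, 157, 154 and 160 CPM in mutant vehicle libraries, with no overlap and a log2 fold change of -0.73 ± 0.06 (adjusted p = 1.10e-08). Matn3, the least abundant of the group, had 11.4 to 12.9 CPM in wild type and 7.58 to 9.44 CPM in mutant vehicle libraries, and a log2 fold change of -0.41 ± 0.11 (adjusted p = 0.0108). Without wild type vehicle replicate 3, its highest library, the change in Matn3 was -0.37 and the adjusted p 0.0511. Comp was at 4844, 4803, 4858 and 4672 CPM in wild type and at 3841, 3296, 3237 and 3483 CPM in mutant vehicle libraries. The groups did not overlap and the log2 fold change was -0.46 ± 0.05 (adjusted p = 1.61e-06).

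Ucma, Cnmd and Snorc had the largest relative falls of the 10. Ucma went from 57.7 to 66.4 CPM in wild type to 29.9 to 37.8 CPM in mutant vehicle libraries (log2 change -0.91 ± 0.07, adjusted p = 4.95e-09). Cnmd was at 640 to 669 CPM in wild type and 354 to 364 CPM in mutant libraries (-0.86 ± 0.05, adjusted p = 8.67e-12). Its SE was the smallest of the 10. Snorc was at 8.73, 5.71, 5.98 and 4.11 CPM in wild type and at 4.13, 2.93, 3.84 and 3.29 CPM in mutant libraries. Its groups met at the fourth wild type library, and the log2 fold change of -0.80 ± 0.19 (adjusted p = 0.00854) became -0.57 with an adjusted p of 0.0619 without wild type vehicle replicate 1. Chad was at 30.7 to 38.9 CPM in wild type and 21.6 to 24.3 CPM in mutant libraries (log2 fold change -0.58 ± 0.08, adjusted p = 1.16e-05). Chadl was at 21.4, 20.6, 19.3 and 23.5 CPM in wild type and at 15.8, 12.6, 13.02 and 15.1 CPM in mutant libraries (-0.58 ± 0.09, adjusted p = 0.000116).

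**Figure D2:**
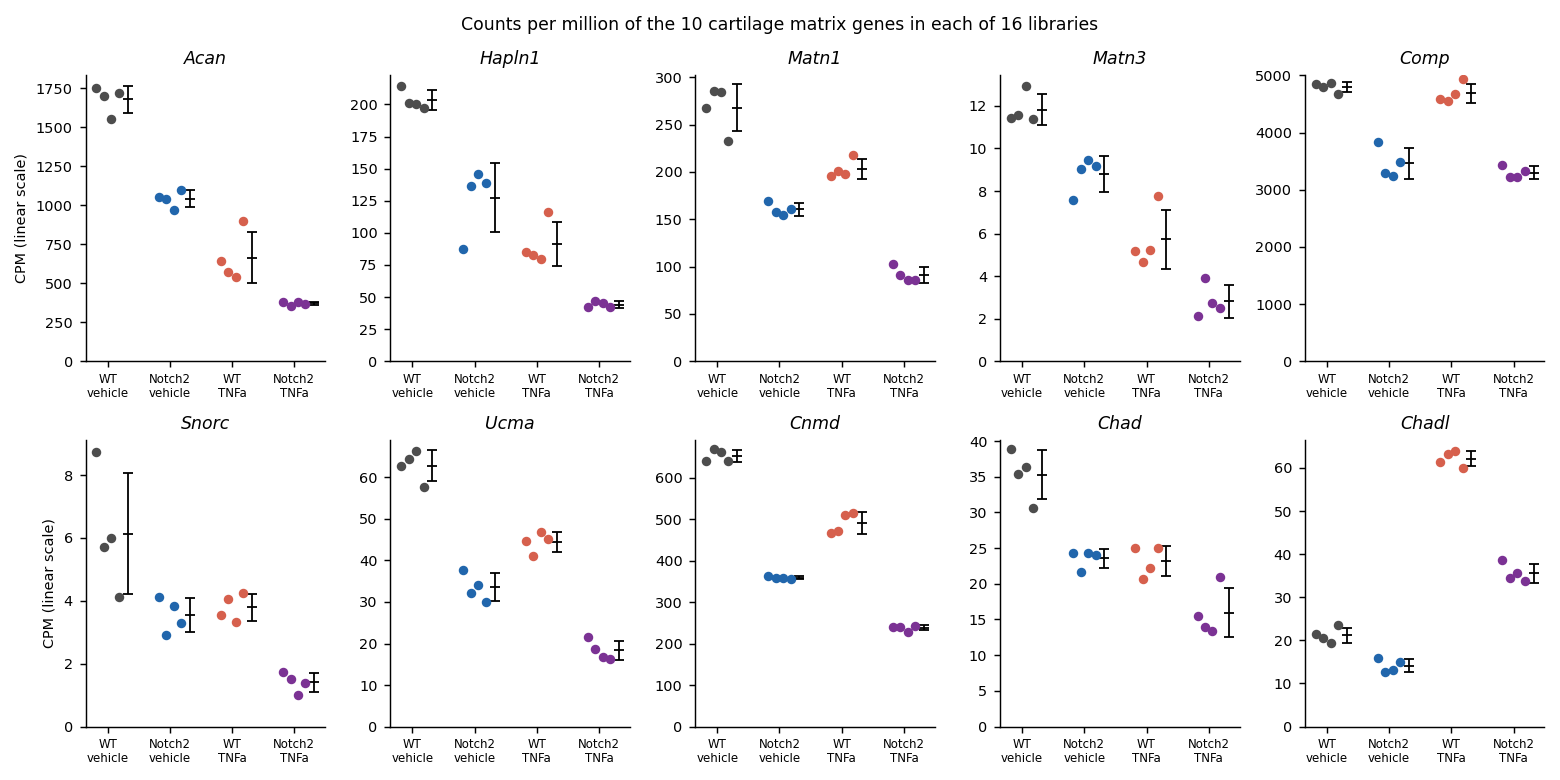
CPM of each of the 10 genes in the 16 libraries, 1 panel a gene on a linear axis from 0, with replicates 1 to 4 as points from left to right in each group (WT, wild type, and Notch2, Notch2 mutant) and the mean with SD as a bar beside them. In 9 of 10 panels all mutant vehicle points lie below all wild type vehicle points, and Chadl is the panel in which the TNFα points lie highest.

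With TNFα present, the 10 genes were again lower in Notch2 mutant than in wild type cells, with log2 fold changes from -0.49 (Comp) to -1.43 (Snorc) and a median of -1.01 against -0.01 over all 19227 genes tested. All 10 were called, beside 4.31% of all genes called lower and 5.63% called higher. In 9 of the 10 the groups did not overlap, beside 7.97% of all genes, and the exception was Chad. A log2 fold change of -1 or less was reached by 5 of the 10 (Snorc, Ucma, Matn1, Cnmd and Hapln1) and by 0.395% of all genes. Without wild type TNFα replicate 4, Hapln1 was at -0.90 (adjusted p = 7.44e-11) and 4 of the 10 were left. The study itself lists the same 5 genes as lower in this comparison of these libraries. Because the 10 genes were chosen with earlier results of these data known, the shares of all genes do not measure an enrichment.

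Under TNFα, Matn1 was at 195, 201, 197 and 218 CPM in wild type and at 103, 90.6, 85.5 and 85.8 CPM in mutant libraries (-1.14 ± 0.07 on the log2 scale, adjusted p = 1.64e-12). Hapln1 was at 85.0, 82.9, 79.9 and 117 CPM in wild type and at 42.0, 47.1, 45.4 and 41.9 CPM in mutant libraries (-1.03 ± 0.11, adjusted p = 6.63e-05). For Acan the wild type TNFα libraries were uneven, at 645, 571, 537 and 898 CPM, whereas the mutant libraries were close together at 381, 357, 380 and 366 CPM. All mutant values were below all wild type values, and the log2 fold change was -0.82 ± 0.16 (adjusted p = 0.0195). Without wild type TNFα replicate 4 it was -0.66 with an adjusted p of 1.17e-08. The call was lost without Notch2 mutant TNFα replicate 1 (adjusted p = 0.0573) or replicate 4 (0.0715), although the change was then still -0.83 in both cases.

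Matn3 had 4.66 to 7.79 CPM in wild type and 2.12 to 3.92 CPM in mutant TNFα libraries (-0.98 ± 0.21, adjusted p = 0.00166), and without wild type TNFα replicate 4 the change was -0.80 (adjusted p = 0.00931). Comp was at 4585, 4557, 4680 and 4927 CPM in wild type and at 3439, 3214, 3221 and 3329 CPM in mutant TNFα libraries (-0.49 ± 0.06, adjusted p = 1.11e-06). Snorc reached 3.32 to 4.23 CPM in wild type and 0.994 to 1.72 CPM in mutant TNFα libraries (-1.43 ± 0.23, adjusted p = 5.93e-05). These last Snorc values rest on 5 to 26 counts a library, above the limit of 3 counts taken as the floor of detection, which covers counting error only.

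Ucma was at 41.0 to 46.9 CPM in wild type and 16.3 to 21.6 CPM in mutant TNFα libraries (-1.25 ± 0.09, adjusted p = 3.68e-11), and Cnmd at 466 to 516 and 229 to 242 CPM (-1.03 ± 0.06, adjusted p = 1.83e-12). Chad was at 20.6 to 24.98 CPM in wild type and at 15.5, 13.98, 13.4 and 20.97 CPM in mutant TNFα libraries. The mutant library that overlapped the wild type range was replicate 4, the shallowest one, with 76 counts of Chad, and the log2 fold change was -0.61 ± 0.11 (adjusted p = 0.000331). Chadl was at 61.4, 63.3, 64.0 and 60.0 CPM in wild type and at 38.7, 34.4, 35.6 and 33.7 CPM in mutant TNFα libraries (-0.79 ± 0.07, adjusted p = 1.97e-09).

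Markers of several cell types moved with the genotype beside these results. The summed level of the 10 chondrocyte markers, none of them among the 10 genes but 8 of them also in the collagen or SOX lists described further on, ranged from 39010 to 42900 CPM in wild type vehicle and from 24540 to 29030 CPM in Notch2 mutant vehicle libraries, and 9 of the 10 markers were called lower. With TNFα the sums were 28700 to 34060 and 14830 to 17150 CPM, again with 9 of 10 lower. Most of these sums was Col2a1 alone, at 37600 CPM on average in wild type vehicle and 14710 CPM in Notch2 mutant TNFα cells. Markers of fibroblasts and perichondrium summed to 31160 to 34130 CPM in wild type and 35740 to 38420 CPM in mutant vehicle libraries, with 5 of 10 called higher and 1 lower. With TNFα these sums were 30470 to 33510 and 34240 to 42170 CPM, with 7 of 10 called higher and none lower. The 14 macrophage markers summed to 69.3 to 76.1 CPM in wild type and 133 to 156 CPM in mutant vehicle libraries (10 of 14 higher), and to 88.3 to 102 and 184 to 210 CPM with TNFα (11 of the 13 tested higher). The defining macrophage gene Adgre1 averaged 3.13 and 8.06 CPM in wild type and mutant vehicle cells, and no marker of these lists was at 0 in all libraries of a group. Of the 8 hypertrophic chondrocyte markers 3 were lower and 1 higher in mutant vehicle cells. Endothelial markers summed to 28.7 to 33.6 and 33.2 to 38.9 CPM, and skeletal muscle markers to 21.2 to 26.8 and 34.1 to 40.0 CPM, in wild type and mutant vehicle libraries. The endothelial sum was mostly Erg, at 23.5 CPM on average in wild type vehicle cells, which was lower in mutant cells (-0.39). Of the 7 endothelial markers 4 were called higher and 1 lower (list median 1.13). Of the 7 skeletal muscle markers 3 were called higher and none lower. In bulk cells fewer chondrocytes and less RNA per chondrocyte cannot be told apart, and the part of these shifts in the lower levels of the 10 genes was not tested.

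**Figure D3:**
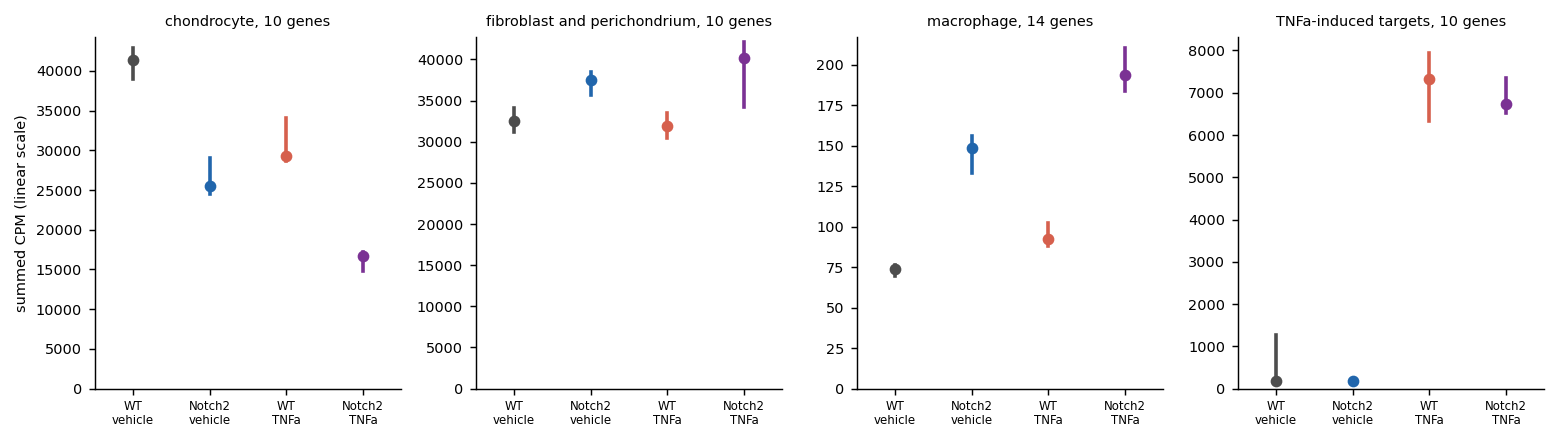
Summed CPM of chondrocyte markers (none of them among the 10 genes), fibroblast and perichondrium markers, macrophage markers and TNFα-induced targets in the 4 groups (WT, wild type, and Notch2, Notch2 mutant), on linear axes from 0, with the point at the median and the line from the lowest to the highest of 4 libraries. Chondrocyte markers are lower and macrophage markers higher in the mutant groups without overlap, and the long line of TNFα-induced targets in wild type vehicle cells, up to 1256 CPM, is replicate 4.

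The third comparison asked what TNFα did to these transcripts in wild type cells, where 20.9% of the 19338 genes tested were called lower and 23.3% higher. Of the 10 genes 8 were lower, Chadl was higher and Comp was not called. The groups did not overlap in 8 of the 10, of which 7 were lower, beside 20.2% of all genes without overlap and lower and 21.5% without overlap and higher. Acan, Hapln1 and Matn3 had log2 fold changes of -1 or less, as did 3.31% of all genes tested. The median of the 10 was -0.55 against 0.04 over all genes.

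Aggrecan and its link protein fell together in wild type cells. Acan went from 1551 to 1748 CPM with vehicle to 537 to 898 CPM with TNFα, a log2 fold change of -1.33 ± 0.17 (adjusted p = 0.000943), or 0.397 of the vehicle level. Hapln1 went from 197 to 215 CPM to 79.9 to 117 CPM (-1.15 ± 0.12, adjusted p = 0.000109) and Matn3 from 11.4 to 12.9 CPM to 4.66 to 7.79 CPM (-1.03 ± 0.14, adjusted p = 2.38e-06). In all of these wild type TNFα replicate 4 was the highest TNFα library, and without replicate 4 of both wild type groups the changes were -1.51, -1.31 and -1.25. Snorc changed by -0.69 ± 0.19 with overlapping groups (adjusted p = 0.00607) and Chad by -0.60 ± 0.08 (adjusted p = 1.97e-06). Falls were smaller for Ucma (-0.49 ± 0.06, adjusted p = 3.56e-07), Cnmd (-0.41 ± 0.04, adjusted p = 7.63e-08) and Matn1 (-0.39 ± 0.06, adjusted p = 7.68e-06). Without replicate 4 of both wild type groups these were -0.91 for Snorc, -0.71 for Chad, -0.54 for Ucma, -0.44 for Cnmd and -0.49 for Matn1, all still called.

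Comp and Chadl did not follow. Comp was at 4672 to 4858 CPM with vehicle and 4557 to 4927 CPM with TNFα, and its log2 fold change was -0.03 with a 95% interval from -0.08 to 0.03 (adjusted p = 0.492). Without wild type TNFα replicate 4 it was -0.06 with an adjusted p of 0.0244, and without replicate 4 of both wild type groups -0.06 with an adjusted p of 0.0586. Chadl rose from 19.3 to 23.5 CPM to 60.0 to 64.0 CPM, a log2 fold change of 1.56 ± 0.07 (adjusted p = 1.85e-12), or 2.94 times the vehicle level, and 1.63 without replicate 4 of both wild type groups. L3mbtl2, whose exons overlap those of Chadl on the other strand, averaged 25.1 CPM with vehicle and 23.1 CPM with TNFα (log2 fold change -0.11, adjusted p = 0.311).

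In Notch2 mutant cells the same division was seen, where 21.9% of the 19633 genes tested were called lower with TNFα and 22.6% higher. Again 8 of the 10 genes were lower, Chadl was higher and Comp was not called. The groups did not overlap in 9 of the 10, of which 8 were lower (20.4% of all genes did so lower and 19.8% higher), and 4 genes, Matn3, Hapln1, Acan and Snorc, had a log2 fold change of -1 or less (4.65% of all genes). The median was -0.82 against 0.03 over all genes.

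Acan went from 971 to 1099 CPM with vehicle to 357 to 381 CPM with TNFα in mutant cells, which was -1.49 ± 0.06 on the log2 scale (adjusted p = 7.57e-18). Hapln1 changed by -1.52 ± 0.16 (adjusted p = 4.98e-05) and Matn3, with 7.58 to 9.44 CPM before and 2.12 to 3.92 CPM after, by -1.60 ± 0.17 (adjusted p = 6.41e-09). Snorc changed by -1.32 ± 0.23 (adjusted p = 2.45e-05), Ucma by -0.84 ± 0.09 (adjusted p = 3.14e-08), Matn1 by -0.81 ± 0.07 (adjusted p = 7.79e-11), Chad by -0.64 ± 0.10 (adjusted p = 8.37e-06) and Cnmd by -0.59 ± 0.06 (adjusted p = 9.88e-10). Comp was at 3237 to 3841 CPM with vehicle and 3214 to 3439 CPM with TNFα, a log2 fold change of -0.07 with a 95% interval from -0.19 to 0.05 (adjusted p = 0.382). Chadl went from 12.6 to 15.8 CPM to 33.7 to 38.7 CPM, which was 1.34 ± 0.09 on the log2 scale (adjusted p = 8.31e-13), or 2.53 times the vehicle level.

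**Figure D4:**
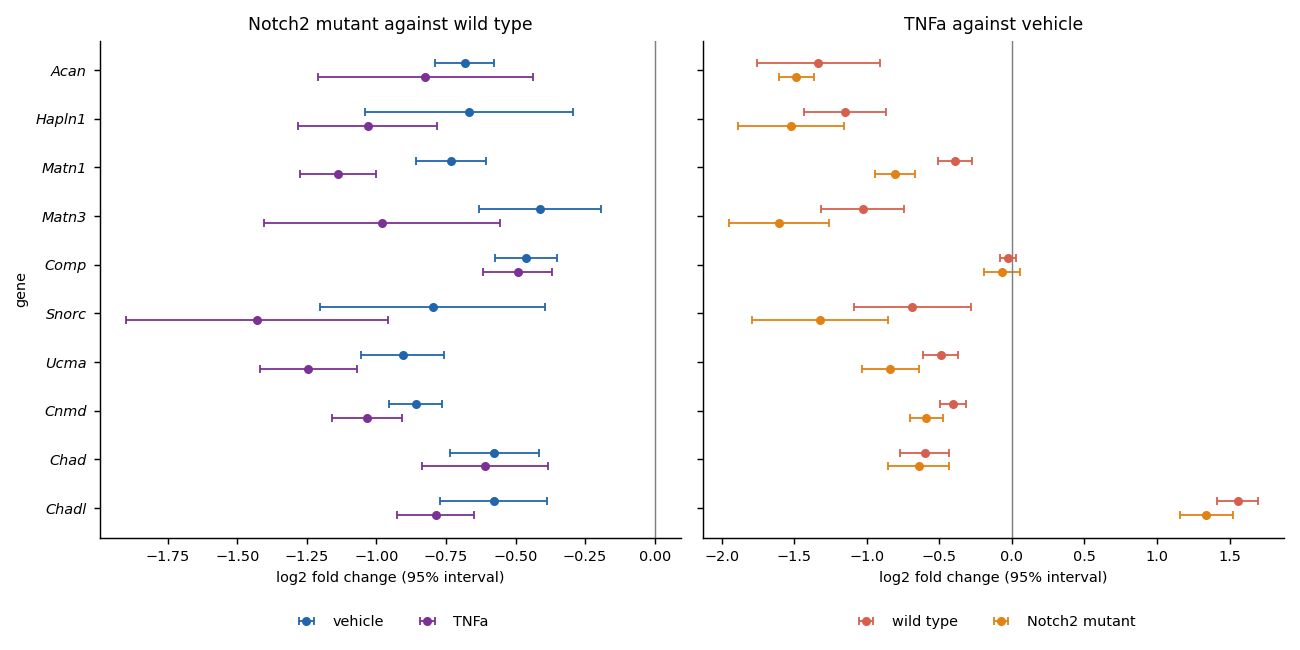
Log2 fold changes of the 10 genes with 95% intervals, on the left Notch2 mutant against wild type with vehicle and with TNFα, on the right TNFα against vehicle in wild type and in Notch2 mutant cells. All intervals on the left lie below 0, and on the right Comp spans 0 in both genotypes while Chadl lies between 1.16 and 1.70.

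Whether TNFα acted differently in the 2 genotypes was tested as the difference between their log2 changes, Notch2 mutant minus wild type, over all 16 libraries. Matn1 was the only 1 of the 10 genes that was called, with a difference of -0.41 ± 0.09 (adjusted p = 0.0305), beside 0.206% of the 21321 genes tested that were called lower. TNFα lowered Matn1 to 0.763 of the vehicle level in wild type and to 0.572 in mutant cells. The call was lost without replicate 4 of both wild type groups (-0.31, adjusted p = 0.0848), without wild type TNFα replicate 4 alone (-0.37, 0.0563) or replicate 2 (-0.41, 0.0521), without Notch2 mutant vehicle replicate 4 (-0.41, 0.0604), and without Notch2 mutant TNFα replicate 2 (-0.40, 0.0769) or replicate 3 (-0.38, 0.112). With all 16 libraries the difference was below 0 for all 10 genes, from -0.04 (Chad) to -0.62 (Snorc). In that fit 5 of them (Matn1, Ucma, Matn3, Cnmd and Snorc) had an unadjusted p under 0.05, a count taken from this fit only. Over 22 other settings the difference ranged from -0.81 to -0.35 for Matn3 and from -0.87 to -0.41 for Snorc. For Ucma the range was -0.43 to -0.28 and for Cnmd -0.20 to -0.15. Of all genes tested, 51.8% were below 0 and 4.35% were below 0 with an unadjusted p under 0.05. For Acan it was -0.15 with a 95% interval from -0.53 to 0.24, and it turned to 0.02 without replicate 4 of both wild type groups. For Chad it turned to 0.06 without those libraries, and for Comp the interval was -0.17 to 0.10.

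The balance between the genes was also examined within libraries, as the log2 ratio of each of the other 9 counts to Acan, in 36 exact permutation tests of 4 against 4 libraries (two-sided). With TNFα the ratio of Chadl to Acan rose by 2.92 in wild type and by 2.82 in Notch2 mutant cells, and that of Comp to Acan by 1.34 and 1.42. Each of these had an exact permutation p = 0.0286, the smallest this design allows, and an adjusted p of 0.0686 over the 36 tests. None of the 36 passed after adjustment. With no p below 0.0286, a test could pass only if many others also reached that floor, so this says little about the ratios. For Hapln1 the ratio to Acan changed by only 0.20 in wild type and by -0.01 in mutant cells with TNFα (exact permutation p = 0.0286 and 1.0), and by -0.01 between genotypes with vehicle (p = 0.971).

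Other matrix genes, grouped by lists, were set beside the 10. All 7 cartilage collagens (Col2a1, Col9a1 to Col9a3, Col11a1, Col11a2 and Col27a1) were lower in Notch2 mutant cells with vehicle, with a median log2 fold change of -0.61, and with TNFα, with a median of -0.88. Col11a1 changed by -0.69 (adjusted p = 1.33e-09) and Col2a1, the main fibrillar collagen of cartilage, by -0.65 (adjusted p = 1.73e-08) with vehicle. With TNFα 5 of the 7 fell in wild type and in mutant cells alike, and Col9a2 and Col9a3 were the ones that were not called. The 3 SOX genes were lower in mutant cells with vehicle and with TNFα, and lower with TNFα in both genotypes. Sox9, the master regulator of chondrocytes, changed by -0.42 between genotypes with vehicle and by -1.44 and -1.92 with TNFα in wild type and mutant cells. Between genotypes with TNFα, Sox9 was close to the threshold (-0.89, adjusted p = 0.049). Its wild type TNFα libraries spread from 64.0 to 109.8 CPM. For Sox5 the TNFα and vehicle groups overlapped in wild type (-0.26, adjusted p = 0.0467) and in mutant cells (-0.34, adjusted p = 0.00605).

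Close relatives of the 10 genes were not called lower between genotypes. Of 12 other hyalectans, link proteins, matrilins and thrombospondins, 11 could be tested, and Hapln2 had too few counts. Between genotypes none was lower and 3 were higher with vehicle (Matn2, Thbs2 and Thbs4), with a list median of 0.03, and the same number was higher with TNFα. Matn2, a matrilin of connective tissue outside cartilage as well, averaged 55.0 CPM in wild type and 64.4 CPM in mutant vehicle cells (0.24, adjusted p = 0.00661), and Thbs4, a thrombospondin related to Comp, 156 and 189 CPM (0.28, adjusted p = 0.000558). With TNFα 5 were lower and 3 higher in wild type (list median -0.52), and 5 lower and 4 higher in mutant cells (list median -0.55). Thbs1 fell from 23190 to 7027 CPM and Bcan, a brain hyalectan at 3.96 CPM, to 1.71 CPM in wild type cells, whereas Matn2 rose by 0.49.

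Small leucine-rich proteoglycans went both ways, with 4 of 13 lower and 4 higher in mutant cells with vehicle (median -0.08), and 5 lower and 2 higher with TNFα (median -0.11). In response to TNFα 8 were lower and 3 higher in wild type cells, and 6 lower and 3 higher in mutant cells. Epyc (-0.75) and Fmod (-0.53) had the lowest values among those called with vehicle, whereas Prelp (0.38) and Optc (1.29) had the highest. Optc was scarce, at 0.591 CPM on average and at most 15 counts in wild type vehicle libraries. Among 9 other secreted cartilage proteins, a list that also holds Epyc, 5 were lower and 1, Mgp, an inhibitor of calcification, was higher (0.41) in mutant cells with vehicle. The lowest of those called were Cilp2 (-1.51, adjusted p = 0.00344) and Scrg1 (-0.96), and the list median was -0.75. In response to TNFα 4 fell and 3 rose in each genotype, with list medians of -0.27 in wild type and -0.09 in mutant cells. Scrg1 fell by 0.90 and 1.26, and the rises were led by Cilp (2.57 and 2.80) and Cilp2 (2.51 and 3.5). Of the 6 aggrecanases, proteases that cut aggrecan, none was lower and 2, Adamts4 (0.52) and Adamts1 (0.26), were higher in mutant cells with vehicle. Under TNFα none was lower and 3 were higher in mutant cells, Adamts15 (2.07), Adamts8 (1.125) and Adamts4 (0.38, with overlapping groups). Adamts15 averaged 13.9 CPM in wild type and 58.6 CPM in mutant TNFα cells. In response to TNFα 3 rose (Adamts4, Adamts8 and Adamts15) and 3 fell (Adamts1, Adamts5 and Adamts9) in each genotype, from -2.003 for Adamts9 to 3.295 for Adamts8 in wild type cells. Adamts8 was near the limit of detection in wild type vehicle cells, at 0.243 CPM and at most 9 counts.

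**Figure D5:**
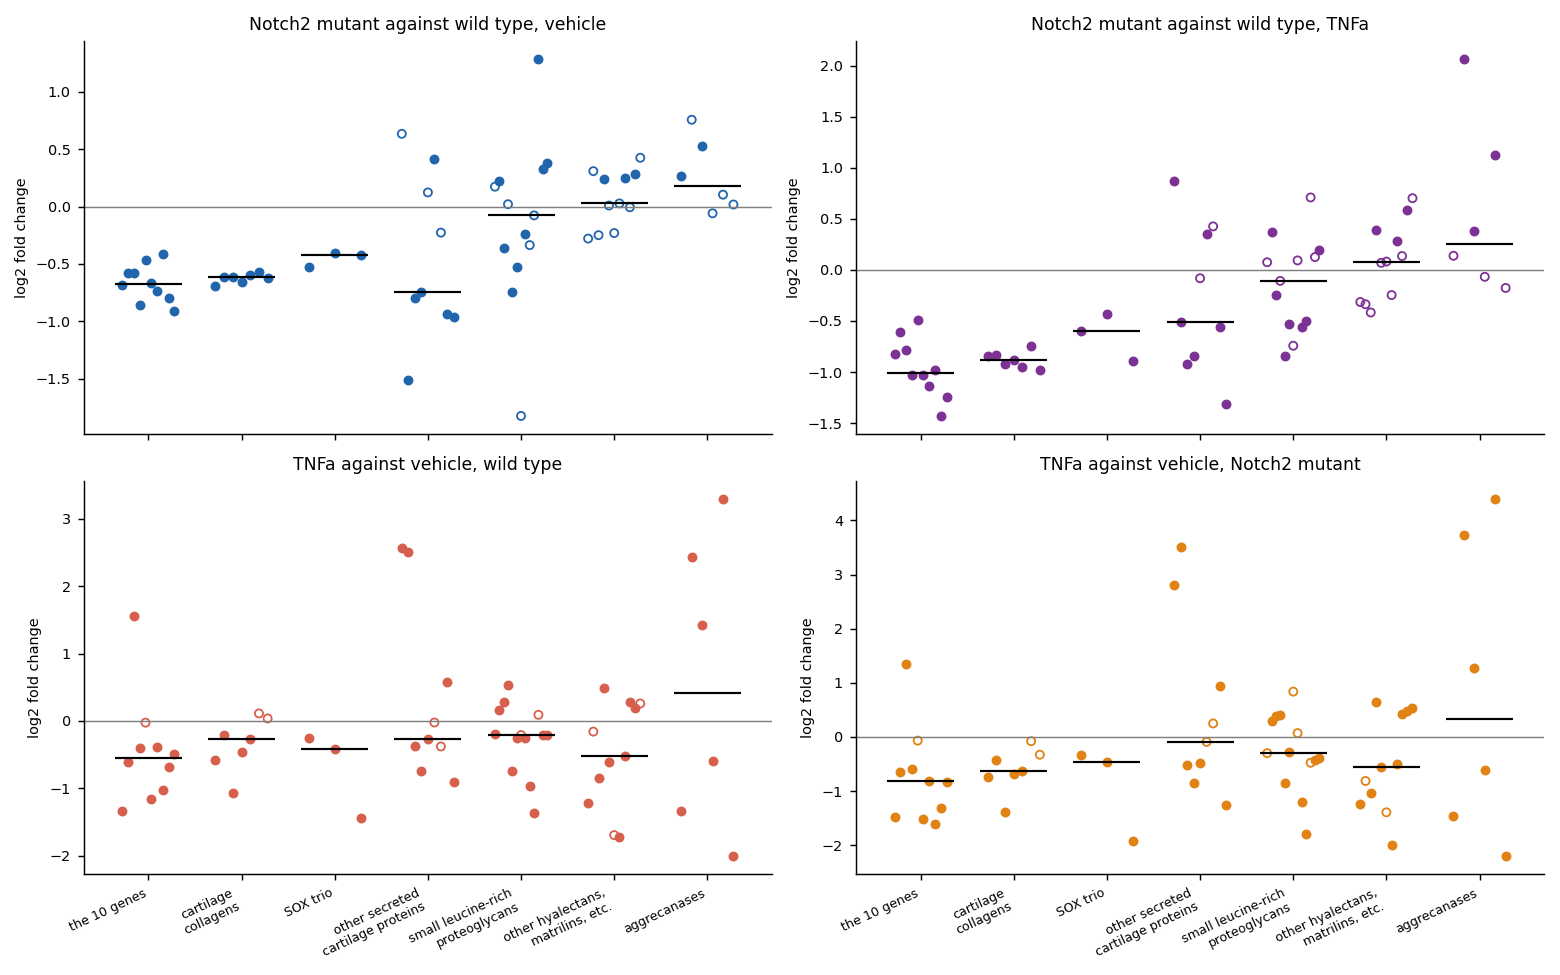
Log2 fold changes of the 10 genes and of 6 lists of matrix genes in the 4 comparisons, 1 panel each with its own axis, with filled points for an adjusted p under 0.05, open points for the rest, and a line at each median. The 10 genes, the cartilage collagens and the SOX genes lie below 0 in both genotype panels, and Chadl is the filled point above 1 among the 10 genes in the TNFα panels.

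Across the 16 libraries, 9 of the 10 genes followed a common profile, with Pearson correlations to the mean of the other members from 0.817 (Matn3) to 0.989 (Matn1), and Chadl was the exception at -0.25. Likeness was ranked over 9577 genes with a mean of at least 10 CPM, a number that includes those of the 10 at that level. Outside the 10, the genes most like their mean profile were Col2a1 (r = 0.990), Cdsn (0.982), Loxl4 (0.980), Fmod (0.9754), Ppp1r1b (0.972) and Cytl1 (0.968). These correlations rest on 16 libraries that share 4 groups, so that the differences between groups make up most of them. Loxl4 changed by -1.01 and -0.95 between genotypes with vehicle and TNFα, and Cdsn by -0.66 and -0.60.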

How the data were processed

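The data were 16 RNA-Seq libraries, 4 per group, made with a TruSeq Stranded mRNA kit and read as 75-base pairs. The authors deposited raw counts per Ensembl gene for each library. By the study's methods, reads were trimmed with Trimmomatic, mapped to GRCm39 with HISAT2 and counted with htseq-count; the submitters' processing notes name GRCm38 and HISAT2 2.1.0 instead, with SAMtools 1.9. Entries that name no gene held 8.81 to 12.1% of fragments and were left out. Names and positions are from GENCODE M39 (GRCm39), promoter sequences from RefSeq (GRCm38.p6) matched to GRCm39. The submitters' replicate numbers are described as biological, but separate animals are not stated, so p-values measure the spread between these libraries.

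Counts were tested with edgeR 4.0.16 in R 4.3.3 (TMM, quasi-likelihood test with robust estimates), with 8 libraries a comparison and 16 for the interaction, over genes with at least 10 counts summed. Adjusted p are Benjamini-Hochberg values over all genes tested, at a threshold of 0.05. SE is the log2 fold change divided by the square root of F. Within-library ratios used a pseudocount of 0.5 counts, and likeness a pseudocount of 0.1 CPM. No 2 libraries of a group agreed within sampling noise (chi-square per degree of freedom 2.14 to 16.0), so none was merged. The fits were tested on simulated data, where the share of changed genes required to be recovered was eased for the interaction after its result was seen. DESeq2 1.42.0, RLE normalization, other filters and thresholds, 1 fit of all libraries, a replicate block and leaving out libraries were tried. The 10 genes, the lists, the cell type markers and the motifs were chosen with earlier results of these data known. List genes were named as the 2 highest and 2 lowest called in a comparison, or where a result turned on them; others were named, after their values were seen, where they made up a count of 5 or fewer.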

Additional observations from a re-analysis of the deposited data

Results flagged for a closer look

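In 4 of 40 groups of 4 values (10 genes by 4 groups), 1 library lay far from the other 3 by Dixon's test at the 95% level, which chance gives in about 1 of 20 groups. Hapln1 was at 87.5 CPM in Notch2 mutant vehicle replicate 1, against 136 to 146 in the other 3. Hapln1 was at 116.6 CPM in wild type TNFα replicate 4, against 79.9 to 85.0. Matn3 was at 12.93 CPM in wild type vehicle replicate 3, against 11.4 to 11.6. Chad was at 21.6 CPM in Notch2 mutant vehicle replicate 2, against 24.1 to 24.3.

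The TNFα response of Matn1 differed between genotypes by -0.4097 on the log2 scale, Notch2 mutant minus wild type (edgeR's interaction test, adjusted p = 0.0305). The call depended on single libraries. Over 22 other settings of the interaction test the difference ranged from -0.4752 to -0.3093 and the adjusted p reached 0.1115.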

How the results depend on the processing

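The counts of called genes among the 10 stayed within 1.5 times of 10, 10, 9, 9 and 1 (genotype with vehicle, genotype with TNFα, TNFα in wild type, TNFα in Notch2 mutant, interaction) in 43 of 48 settings that left out 1 library and in 38 of 43 other settings. When calls also had to reach 1 on the log2 scale in either direction, they were 0, 5, 4 and 5 in the 4 comparisons of 2 groups. The interaction count was 0 without replicate 4 of both wild type groups, and between 0 and 1 when 1 library was left out, being 0 without Notch2 mutant vehicle replicate 4, wild type TNFα replicate 2 or 4, or Notch2 mutant TNFα replicate 2 or 3. DESeq2 gave 10, 10, 9, 9 and 1.

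Of 480 log2 fold changes with 1 library left out, 456 kept their direction and side of the threshold, 16 lost the call, 1 gained it and 7 changed sign. Of 340 under the other settings, 334 did so, 4 lost the call and 2 changed sign. The 9 sign changes were all of uncalled values near 0. For Comp with TNFα in Notch2 mutant cells the lowest and highest values with 1 library left out were -0.09931 and 0.001161, and for the interaction they were -0.2359 and 0.03482 for Acan, -0.08159 and 0.0159 for Comp and -0.115 and 0.03226 for Chad, while without replicate 4 of both wild type groups the interaction was 0.02444 for Acan and 0.06351 for Chad. The causes were not tested.

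Same-numbered libraries did not vary together (correlations of deviations from -0.27 to 0.25, with 1, 0, 2 and 2 of 8 libraries closest to their own number in the 4 comparisons), so the numbers were not taken as pairs. With the replicate number as a block, the counts were 9, 10, 9, 9 and 1, and Hapln1 with vehicle lost its call (-0.69, adjusted p = 0.148), as it also did without a count filter (-0.67, adjusted p = 0.0673) and without replicate 4 of both wild type groups (-0.69, adjusted p = 0.0885). Over all genes the interaction called 101, against 174 with DESeq2, 266 without a count filter, 51 without Notch2 mutant TNFα replicate 3 and 156 without Notch2 mutant vehicle replicate 1. The number of counts limits Snorc and Matn3 most, with 5 to 26 and 9 to 67 counts in Notch2 mutant TNFα libraries.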
